A study of Drosophila melanogaster with 12 samples.

Results

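RNA sequencing of fly heads was used to ask how gene expression across the genome differed when neurons made the human Aβ42 peptide. The AD group was nSyb>Abeta42, in which the pan-neuronal driver nSyb-Gal4 switched on a transgene for the Arctic form of human Aβ42 fused to the secretion signal of the fly protein Argos. The Control group was nSyb>w1118, which carried the same driver but no Aβ42 transgene. All genes that passed a filter on low counts were taken, which gave 10577 of the 14162 genes in the deposited table. Each group had 3 samples, 6 of the 12 samples of the series, and each sample pooled 20 heads of mated females. The other 6 samples also made Yip7 or a shortened Yip7. They entered the filter on low counts, the scaling and the estimate of the spread between samples, and their counts are given for a few genes. All flies were kept at 29 °C and labelled 10 days old, except the third Control sample, which was labelled 2 weeks old. The labels call the tissue head in every sample, although the sample descriptions speak of dissected brains.

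Drosophila makes no Aβ of its own. In this model the yeast activator Gal4, placed under the promoter of the synaptic vesicle gene nSyb, drives an Aβ42 transgene in all neurons, and the secreted peptide accumulates in the brain, where it disturbs protein folding, synapses and behaviour. A fly head holds the brain with its neurons and glia, the compound eyes, fat body, muscle and blood cells. The fat body does the work of liver and adipose tissue, storing fat and secreting yolk, storage and immune proteins into the blood, while a few clusters of brain neurons release insulin-like and other peptide hormones that set its metabolism. RNA from all of these tissues was measured together, so fewer cells of a type and less RNA per cell cannot be told apart. The groups also differed in the chromosome that carried the transgene, so the effects of Aβ42 and of that genetic background cannot be told apart either. The human transgene has no entry in the gene table, and its level is not given here.

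Depth was similar, with 40047402 to 40565696 counts assigned to genes in the AD samples and 41590284 to 41737332 in the Control samples. Levels are given below as CPM, normalised read counts scaled by TMM to a common library size, and differences as the log2 fold change of AD over Control with its standard error. A gene was called when edgeR's quasi-likelihood test gave a p under 0.05 after Benjamini-Hochberg adjustment. Markers of the head tissues were present in every sample, including the photoreceptor markers (51421 ± 3863 CPM summed in AD, 62639 ± 7146 CPM in Control, SD, n = 3 each) and the fat body markers (78457 ± 2288 CPM in AD, 103427 ± 5313 CPM in Control), as the head label says. Summed glial markers were 0.71 times and neuronal markers 0.758 times as high in AD as in Control heads, and muscle markers 1.19 times. The neuronal markers were elav, nSyb, brp, Syt1, fne and Rbp9, and the glial ones repo, moody, nrv2, alrm, wrapper and Eaat1. Several of them, such as the synaptic genes nSyb, brp and Syt1, are described again below. The sums are therefore not separate from those genes. The neuronal sums were 3266, 3280 and 2484 CPM in AD, against 4099, 3845 and 3973 CPM in Control heads. The lowest was the third AD sample, which was also low in long transcripts, as described below. Summed digestive enzymes were 5.81 times as high in AD heads, with 3 of the 46 at 0 in all AD samples and 15 at 0 in all Control samples. In each of these sums but the photoreceptor one the groups did not overlap, which in a two-sided exact permutation test of 3 against 3 samples gives p = 0.1, the smallest it allows.

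The responses were broad. In AD heads 2750 genes were called, 26.0% of those tested, of which 1518 (14.4%) were higher and 1232 (11.6%) lower. The distance between 2 samples, taken over log2 levels of all tested genes, was 82.1 to 103 between AD and Control samples, against 41 to 50.3 within AD and 42.7 to 61.1 within Control. Most changes were moderate. Among the called genes 564 (5.33% of those tested) were more than 2-fold higher and 289 (2.73%) more than 2-fold lower, and 151 and 45 were more than 8-fold higher and lower. Calls were spread over the long chromosome arms, from 24% of tested genes on X to 27.8% on 2R, while the small chromosome 4 had 11.6% of its 86 tested genes called and a median log2 fold change of -0.21.

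The best separated genes, leaving aside the ribosomal, heat shock and odorant receptor families, included transporters and metabolic enzymes. Orct2, an organic cation transporter gene, was at 48.1, 46.4 and 47.6 CPM in AD heads, against 6.91, 7.01 and 7.87 CPM in Control heads. The 3 samples of each group were nearly equal and far apart between groups, a log2 fold change of 2.71 ± 0.09 (edgeR, adjusted p = 2.33e-09). MFS3, a membrane transporter gene of the major facilitator superfamily, was at 45.4, 40.9 and 48.2 CPM in AD heads, against 3.38, 2.20 and 1.94 CPM in Control heads, 17.9-fold higher. Cyp4p2, a cytochrome P450 gene, was at 74.8, 60.7 and 59.3 CPM in AD heads, against 3.73, 3.04 and 2.25 CPM in Control heads, 21.6-fold higher. Rdh1, a retinol dehydrogenase gene, rose 5.92-fold, and the uncharacterised genes CG17264, CG9313, CG8620, CG13855 and CG17732 rose 10.1-, 8.08-, 35.8-, 10.6- and 54-fold. In the same set PCNA, the sliding clamp of DNA replication and repair, was at 5.68, 4.33 and 6.56 CPM in AD heads, against 0.448, 0.362 and 0.384 CPM in Control heads. The gene ver, which encodes a protein that protects chromosome ends, rose 5.38-fold.

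Among the genes that fell, AstC-R1, a receptor for the peptide allatostatin C, stood out, at 4.30, 4.23 and 3.78 CPM in AD heads, against 20.6, 19.2 and 17.2 CPM in Control heads. Its log2 fold change was -2.21 ± 0.11 (adjusted p = 3.57e-08). The uncharacterised gene CG14567 fell to 1.96, 2.25 and 2.02 CPM in AD heads, against 16.8, 19.6 and 17.1 CPM in Control heads. CG8654 fell to 0.114 times, CG14274 to 0.229 times and CG13607 to 0.394 times the Control level, and Adk3, an adenylate kinase gene, to 0.442 times. By absolute level the largest increases included the elongation factor eEF1alpha1, the endoplasmic reticulum chaperone Hsc70-3 and the muscle genes Act57B and Mp20, and the largest decreases were in the yolk protein Yp2, the lipoprotein apolpp, the storage protein Lsp1beta and the fatty acid synthase FASN1.

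**Figure D1:**
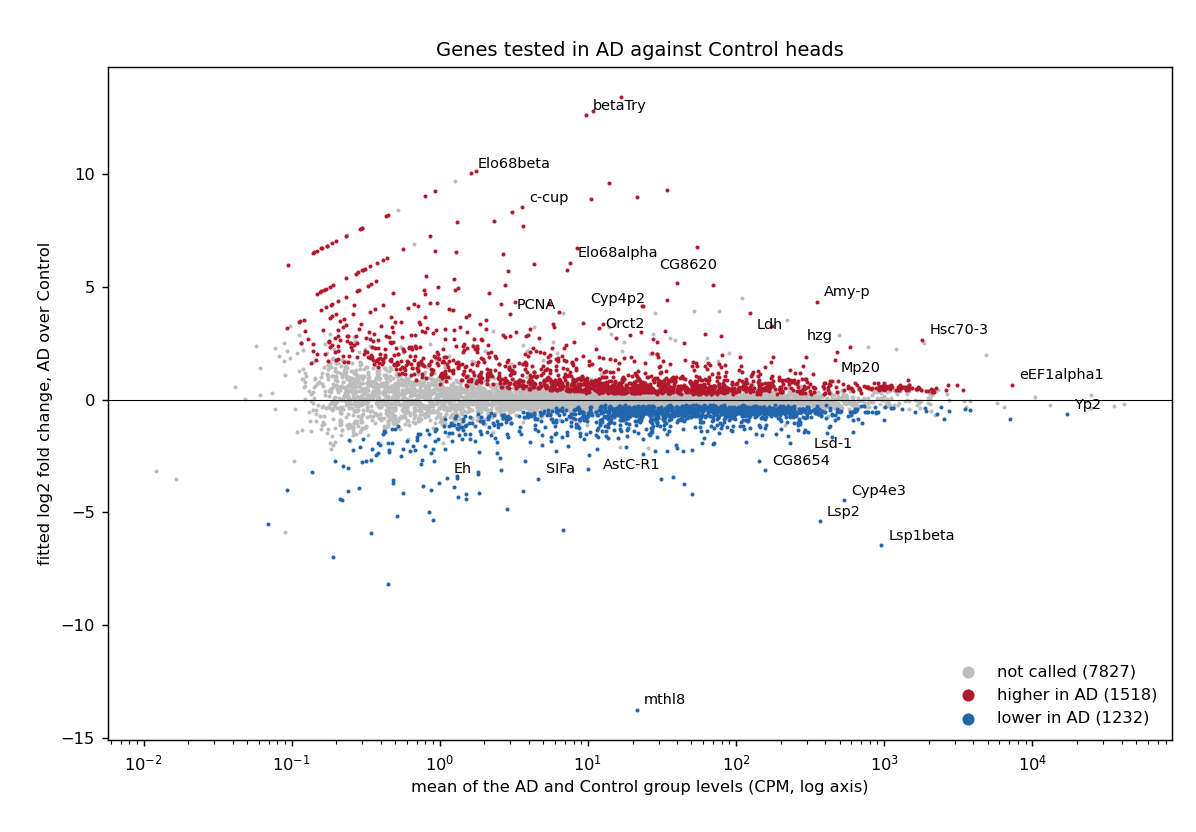
Each point is 1 of the 10577 tested genes, with the mean of the AD and Control group levels in CPM on a log x axis and the fitted log2 fold change of AD over Control on the y axis, red for the 1518 genes higher in AD and blue for the 1232 lower. The fitted values of genes at 0 in a whole group (such as betaTry, Elo68beta and mthl8) depend on the fit and are no bounds, and Lsp1beta, Lsp2 and Cyp4e3 combine a high level with a large fall.

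The fold changes varied with transcript length, which bears on the neuronal genes described further on. Taking the exon length of the longest transcript of each gene from an annotation (10368 of the tested genes, 98%), the median log2 fold change was 0.15 for genes under 1000 bases, 0.07 from 1000 to below 2000, -0.02 from 2000 to below 3000, -0.12 from 3000 to below 5000 and -0.24 for 5000 or more. Of the 1223 genes of 5000 bases or more, 55 were called higher and 219 lower. The trend was partly a property of 1 library. In the third AD sample the longest class was 0.43 log2 units below and the shortest 0.15 above the other AD samples. Without that sample the medians ran from 0.10 in the shortest to -0.10 in the longest class, and 78 genes of the longest class were higher and 104 lower. A further fit, chosen after seeing the data, removed the length trend from each sample. It called 2927 genes and held 86.8% of the calls above, and its values and those without the third AD sample are given beside the main lists of long neuronal genes.

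**Figure D2:**
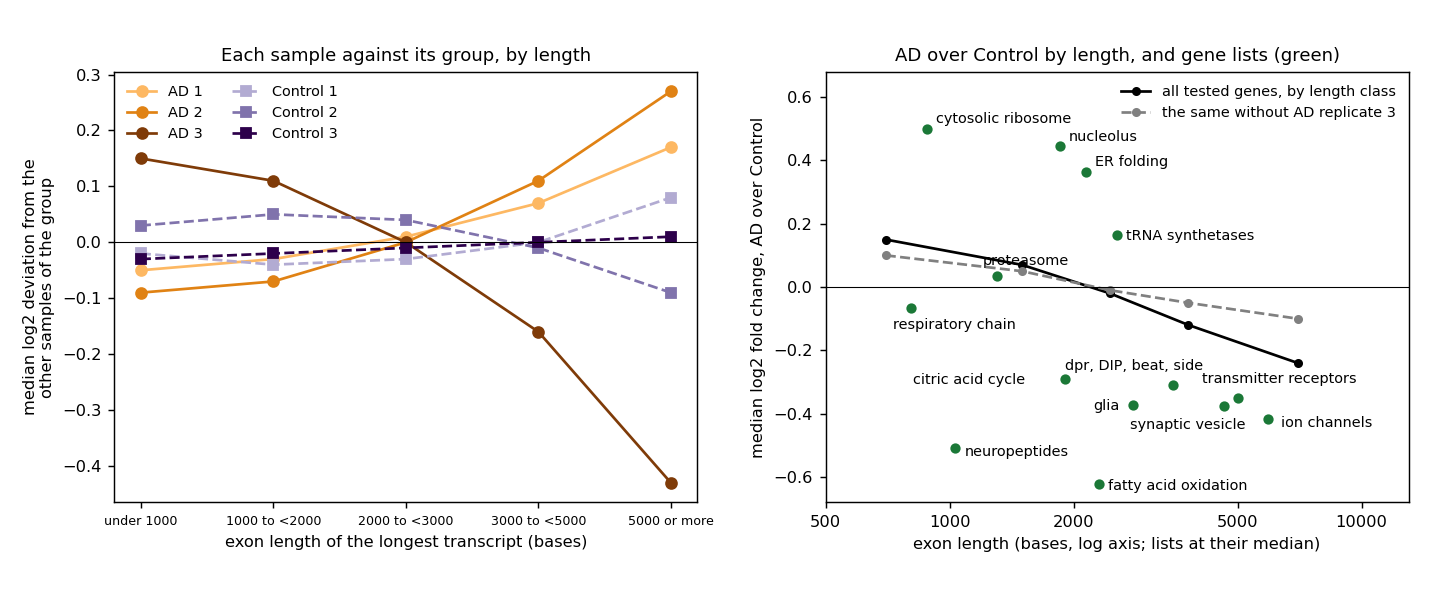
The left panel plots for each sample, AD 1 to 3 and Control 1 to 3, the median log2 deviation from the other samples of its group in 5 classes of exon length, where AD 3 falls to -0.43 in the longest class. The right panel plots the median log2 fold change of AD over Control against exon length (log axis, each length class drawn at a fixed point within it) with all samples (black) and without AD 3 (grey), and gene lists at their median length (green), among which neuropeptides and fatty acid oxidation lie far below the line for all genes of their length.

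Many genes for making and folding proteins were higher. Of 29 tested genes for folding, export and degradation in the endoplasmic reticulum (ER), 15 were higher and 1 lower, with a median log2 fold change of 0.36. Over all tested genes 14.4% were higher and 11.6% lower, with a median of -0.01, and these shares apply beside every list below. No gene of the list was lower without the third AD sample or any one of the Control samples. Gp93, the ER form of the Hsp90 chaperone, was at 623, 667 and 881 CPM in AD heads, against 193, 242 and 206 CPM in Control heads. The groups were far apart, with a log2 fold change of 1.76 ± 0.19 (adjusted p = 2.97e-05). Ero1L, the oxidase that lets disulfide bonds form in the ER, was at 83.4, 90.7 and 96.5 CPM in AD heads, against 33.8, 33 and 30.8 CPM in Control heads (adjusted p = 4.14e-07). Sil1, the nucleotide exchange factor of the ER Hsp70, rose 2.73-fold. BI-1, an ER membrane protein that restrains cell death, rose 2.45-fold. Smaller increases were measured for wbl (1.8-fold), Calr, the calcium-binding chaperone calreticulin (1.59-fold), Der-2 (1.44-fold) and Herp (1.43-fold), which act in folding or in the removal of misfolded proteins.

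Of 47 translation factor genes, which act with the ribosome, 23 were higher and 1 lower (median 0.35), with 17 to 22 higher when single samples were left out and none lower without the first AD, the second AD, the second Control or the third Control sample. The elongation factor eEF1alpha1, the most abundant of them, was at 9789, 8371 and 8748 CPM in AD heads, against 5685, 5968 and 5470 CPM in Control heads, a log2 fold change of 0.65 ± 0.13 (adjusted p = 0.00341). Of the subunits of initiation factor 3, eIF3l rose 1.64-fold and eIF3h 1.47-fold. The elongation factor eEF2, at 4267, 3534 and 3896 CPM in AD heads, against 2652, 3154 and 2868 CPM in Control heads, was called (adjusted p = 0.0203) but lost the call without the first AD sample (0.0853), the first Control sample (0.0643) or the third Control sample (0.0661).

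Among the enzymes that load amino acids onto tRNAs, 13 of 33 were higher and 1 lower (median 0.16), with 2 lower without the third AD sample. ValRS, the valine enzyme, was at 94.0, 95.6 and 107 CPM in AD heads, against 44.5, 51.5 and 50.5 CPM in Control heads, a log2 fold change of 1.02 ± 0.11 (adjusted p = 4.88e-05). ThrRS rose 1.77-fold and LeuRS 1.59-fold. The enzyme that fell, TrpRS-m, is the mitochondrial one for tryptophan, at 0.774 times the Control level. Genes of the nucleolus, where ribosomal RNA is made and modified, all had positive fold changes, 19 of 19 with a median of 0.45, and 10 were called. Fib, the methyltransferase fibrillarin, was at 47.3, 53.4 and 49.7 CPM in AD heads, against 20.9, 24.1 and 29.4 CPM in Control heads (log2 fold change 1.02 ± 0.14, adjusted p = 0.000304). Nop60B, the pseudouridine synthase of the nucleolus, rose 1.95-fold and NHP2, a protein of the same particle, 1.7-fold.

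Few genes of the machinery that degrades proteins were called. None of 32 proteasome genes was called in either direction (median 0.04), and none of 21 genes of the vacuolar proton pump that acidifies lysosomes (median 0.01). At an unadjusted edgeR p under 0.05 the proteasome had 1 gene higher and none lower and the pump 1 higher and 1 lower, and DESeq2 on all samples called the same numbers. Of 24 autophagy genes 3 were higher and none lower, with 2 lower without the first AD and 1 without the third AD sample. The clearest was ref(2)P, the fly p62 that links ubiquitinated cargo to autophagosomes, at 430, 367 and 398 CPM in AD heads, against 276, 292 and 261 CPM in Control heads, 1.44-fold higher (adjusted p = 0.00185). Genes for proteins of the mitochondrial ribosome had 2 of 72 higher and 2 lower with a median of 0.03. Without the third AD sample none was higher and 4 were lower, and without any one of the Control samples none was higher and 1 was lower. Leaving out the first or the second AD sample gave 1 lower, with 2 and 1 higher. The transcripts are short (median 778 bases), and with the length trend removed 8 were lower and 1 higher (median -0.12). In lysosomes spin, a membrane transporter needed to renew them, fell to 168, 202 and 168 CPM in AD heads, against 353, 340 and 382 CPM in Control heads, 0.501 times the Control level (adjusted p = 0.000304).

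**Figure D3:**
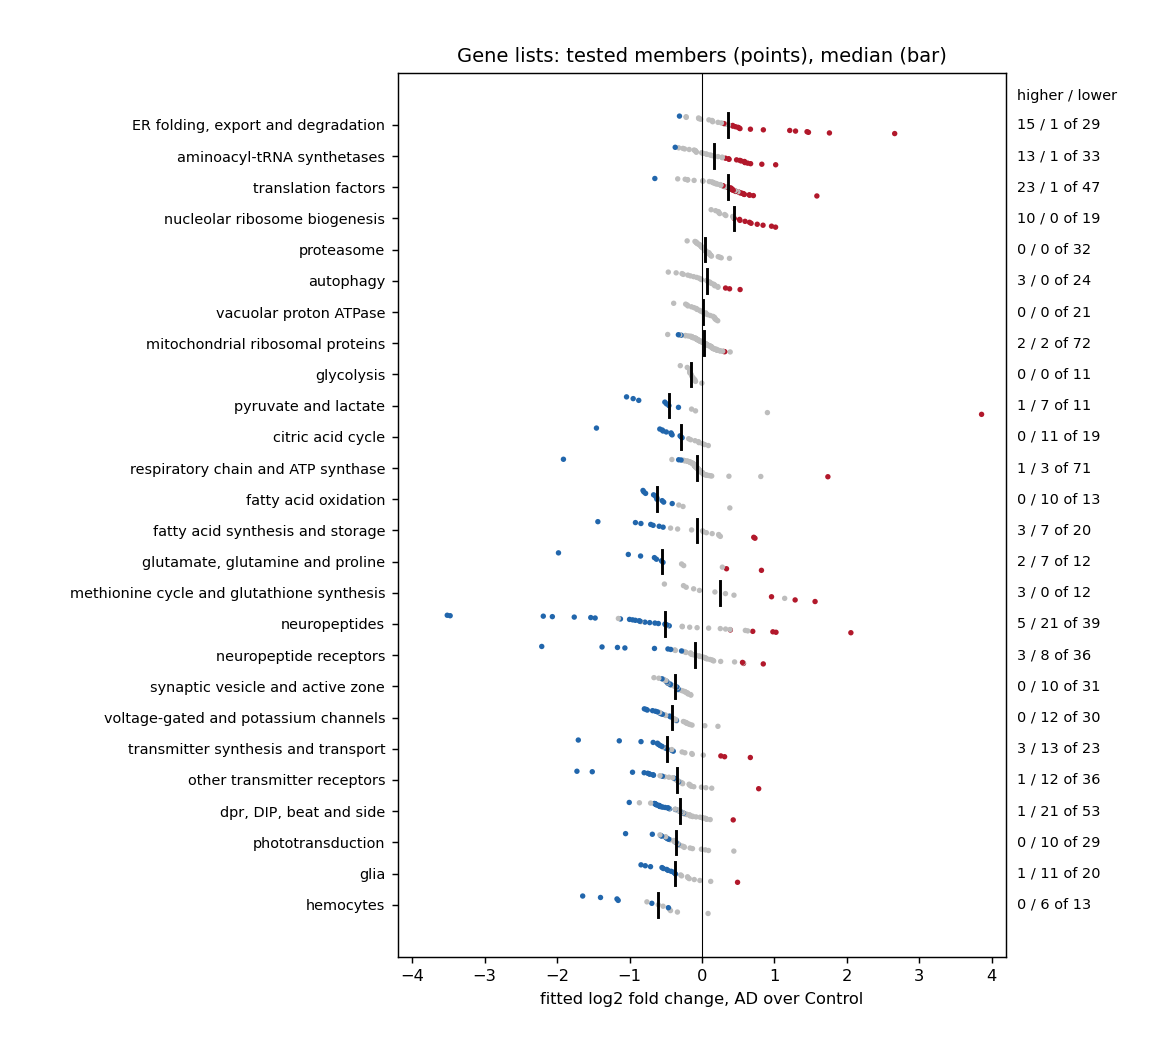
Each row is a gene list and each point a tested member, placed by its fitted log2 fold change of AD over Control, red where higher in AD, blue where lower and grey where not called, with the list median as a black bar and the counts at the right. Lists for protein synthesis and ER folding lie to the right of 0, and fatty acid oxidation, neuropeptides and hemocytes lie to the left. Elo68alpha, at 6.07, is outside the axis in the row of fatty acid synthesis and storage.

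Energy metabolism changed at particular steps. Glycolysis, which turns glucose into pyruvate, had no called gene among 11, although all 11 fold changes were below 0 (median -0.15), and 1 was lower at an unadjusted edgeR p under 0.05, as in DESeq2 on all samples, and 1 was called lower without the third AD sample and 3 with the length trend removed. In a list of genes for pyruvate, lactate and the glycerol phosphate shuttle, which branches off within glycolysis, 7 of 11 were lower. The lactate dehydrogenase Ldh was the 1 that was higher. Gpdh1 and Gpo1 encode the cytosolic and mitochondrial enzymes of the glycerol phosphate shuttle, which carries electrons from glycolysis into mitochondria and supplies glycerol for fat. Gpdh1 was at 392, 500 and 495 CPM in AD heads, against 958, 935 and 961 CPM in Control heads (log2 fold change -1.04 ± 0.11, adjusted p = 2.49e-05), so the groups were far apart, and Gpo1 fell to 0.518 times the Control level. PCB, pyruvate carboxylase, fell to 0.546 times, and Mpc1, a subunit of the carrier that brings pyruvate into mitochondria, to 0.701 times. Ldh was at 220, 213 and 262 CPM in AD heads, against 17.9, 14.7 and 15.2 CPM in Control heads, so that Ldh and Gpdh1, enzymes that both turn NADH back to NAD+ in the cytosol, moved in opposite directions.

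In the citric acid cycle 11 of 19 genes were lower and none higher (median -0.29), though only 7 were lower without any one of the Control samples. Men, the cytosolic malic enzyme that supplies NADPH for fat synthesis, fell most, to 289, 312 and 379 CPM in AD heads, against 863, 852 and 978 CPM in Control heads, with no overlap and a log2 fold change of -1.46 ± 0.13 (adjusted p = 6.68e-06). Within the cycle proper the changes were smaller, with kdn, citrate synthase, at 0.711 times and Ogdh, a subunit of the oxoglutarate dehydrogenase, at 0.683 times the Control level. The respiratory chain and ATP synthase had 1 of 71 genes higher and 3 lower (median -0.06), and 1 lower without the first AD, the second Control or the third Control sample. Their transcripts are short, and with the length trend removed 30 of the 71 were lower and 1 higher (median -0.19).

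Genes of glutamate, glutamine and proline metabolism fell in 7 of 12 cases and rose in 2, of which Got1 lost its call whichever single sample was left out, so that 1 remained called higher. Oat, ornithine aminotransferase, was at 24.9, 23.9 and 35.9 CPM in AD heads, against 96.5, 120 and 117 CPM in Control heads, a log2 fold change of -1.98 ± 0.24 (adjusted p = 7.89e-05). Gs1, a glutamine synthetase, fell to 0.494 times the Control level. The enzymes that degrade proline fell too, slgA to 0.647 times and P5CDh1 to 0.678 times. Got2, the mitochondrial aspartate aminotransferase, went the other way, at 583, 566 and 722 CPM in AD heads, against 309, 422 and 328 CPM in Control heads (log2 fold change 0.82 ± 0.15, adjusted p = 0.00201). In the methionine cycle 3 of 12 genes were higher and none lower. Ahcy, which breaks down S-adenosylhomocysteine, was at 188, 199 and 213 CPM in AD heads, against 73.6, 88.4 and 83.9 CPM in Control heads, 2.44-fold higher, Sardh, the sarcosine dehydrogenase, rose 2.95-fold, and Cbs, which commits homocysteine to cysteine, 1.95-fold.

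Targets of the amino acid response factor ATF4, a branch of the stress response to unfolded proteins, moved both ways, with 5 of 18 higher and 2 lower (median 0.04). Nmdmc, a mitochondrial folate enzyme, was at 130, 158 and 189 CPM in AD heads, against 49.6, 61.3 and 57.8 CPM in Control heads (log2 fold change 1.5 ± 0.17, adjusted p = 5.81e-05), and the pseudokinase trbl rose 1.81-fold. The serine synthesis enzyme aay fell instead, to 223, 271 and 308 CPM in AD heads, against 530, 563 and 692 CPM in Control heads (log2 fold change -1.15 ± 0.16, adjusted p = 0.00029). The other gene that fell, the asparagine synthetase AsnS, at 0.508 times the Control level, was not called without the first AD, the third AD or the third Control sample, which leaves 1 lower.

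Most fat oxidation genes fell. Of 13 tested genes 10 were lower and none higher (median -0.62), with 1 higher without the third AD sample. Mcad, the medium-chain acyl-CoA dehydrogenase, was at 303, 258 and 321 CPM in AD heads, against 504, 582 and 465 CPM in Control heads (log2 fold change -0.81 ± 0.14, adjusted p = 0.00137). The carnitine palmitoyltransferase whd, which admits long fatty acids into mitochondria, was at 258, 225 and 218 CPM in AD heads, against 374, 389 and 331 CPM in Control heads, 0.641 times as high. Mtpalpha, of the trifunctional protein, fell to 0.583 times and Etf-QO, which passes electrons from this pathway to the respiratory chain, to 0.573 times. Abcd3, a gene of the transporter family that brings fatty acids into peroxisomes, was among the best separated of all genes, at 106, 117 and 109 CPM in AD heads, against 354, 326 and 337 CPM in Control heads (log2 fold change -1.62 ± 0.11, adjusted p = 5.69e-07). The list held with the length trend removed, with 11 lower and 1 higher (median -0.61).

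The genes for making and storing fat were more mixed, with 7 of 20 lower and 3 higher (median -0.07). Proteins of the lipid droplet surface fell. The perilipin Lsd-1 was at 181, 172 and 144 CPM in AD heads, against 444, 473 and 430 CPM in Control heads (log2 fold change -1.44 ± 0.10, adjusted p = 1.22e-06), and Jabba, which anchors histones on droplets, was at 159, 152 and 178 CPM in AD heads, against 434, 436 and 396 CPM in Control heads (-1.37 ± 0.11, adjusted p = 2.51e-06). Lsd-2, the other perilipin, fell to 0.612 times the Control level. Synthesis genes fell too, with FASN1 at 1831, 1842 and 1730 CPM in AD heads, against 2716, 3241 and 3736 CPM in Control heads, 0.557 times as high, and AcCoAS, acetyl-CoA synthase, at 0.529 times. FASN1 has a long transcript and was not called with the length trend removed.

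Among the 3 that rose were bmm, the triglyceride lipase that empties droplets, at 146, 135 and 138 CPM in AD heads, against 93.5, 96.6 and 64.9 CPM in Control heads (log2 fold change 0.71 ± 0.15, adjusted p = 0.0039), and SREBP, the transcription factor that controls lipid synthesis, 1.66-fold higher. The third was Elo68alpha, a fatty acid elongase gene known in males for a step of pheromone synthesis, at 14.5, 14.5 and 15.6 CPM in AD heads, against 0.373, 0.0483 and 0.24 CPM in Control heads (log2 fold change 6.07 ± 0.30, adjusted p = 3.86e-08). Its neighbour Elo68beta on 3L had 142, 125 and 128 counts in AD heads and 0 in all Control samples, at least 44.3-fold higher against a floor of 3 counts per Control library. The pair lies side by side, at 11101875 to 11103030 and 11100675 to 11101698 of the dm6 assembly, and as related genes they may share reads.

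Secreted products of the fat body showed the largest falls of abundant transcripts. Of 12 tested yolk and storage protein genes 5 were lower and 2 higher. Lsp1beta, a larval serum protein that stores amino acids, was at 8.92, 34.5 and 20.6 CPM in AD heads, against 2436, 1711 and 1505 CPM in Control heads, with no AD sample near any Control sample (log2 fold change -6.46 ± 0.55, adjusted p = 4.78e-06). Lsp2, a second storage protein, was at 11.4, 20.9 and 18.4 CPM in AD heads, against 838, 646 and 664 CPM in Control heads (-5.40 ± 0.96, adjusted p = 0.00145). The gene fit, which encodes a satiety signal released from the female fat body, was at 57.3, 152 and 78.0 CPM in AD heads, against 322, 335 and 436 CPM in Control heads, 0.263 times as high. The lipoprotein apolpp, the main carrier of fat in fly blood, was at 5304, 5262 and 4370 CPM in AD heads, against 9486, 8808 and 8975 CPM in Control heads (-0.87 ± 0.13, adjusted p = 0.000345).

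The yolk proteins themselves differed less. Yp2 was at 13430, 14750 and 12210 CPM in AD heads, against 18910, 21490 and 22530 CPM in Control heads, 0.642 times as high (adjusted p = 0.00465), while Yp1 and Yp3, at 0.86 and 0.779 times, were not called. Beside the falls of Lsp1beta and Lsp2, the summed fat body markers were 0.759 times as high in AD as in Control heads, and consist mostly of the yolk proteins. The genes that rose, Lsp1gamma and Fbp2, were scarce, with means of 0.368 and 0.35 CPM in AD heads, against 0.0403 and 0.0246 CPM in Control heads. The glucosidase gene tobi, a gene known to respond to both insulin and Akh, was at 15.7, 25.7 and 72.3 CPM in AD heads, against 232, 308 and 205 CPM in Control heads (log2 fold change -2.71 ± 0.55, adjusted p = 0.00332). The cytochrome P450 gene Cyp4e3 was at 62.9, 26.3 and 51.2 CPM in AD heads, against 1348, 930 and 804 CPM in Control heads (-4.46 ± 0.40, adjusted p = 7.92e-06).

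**Figure D4:**
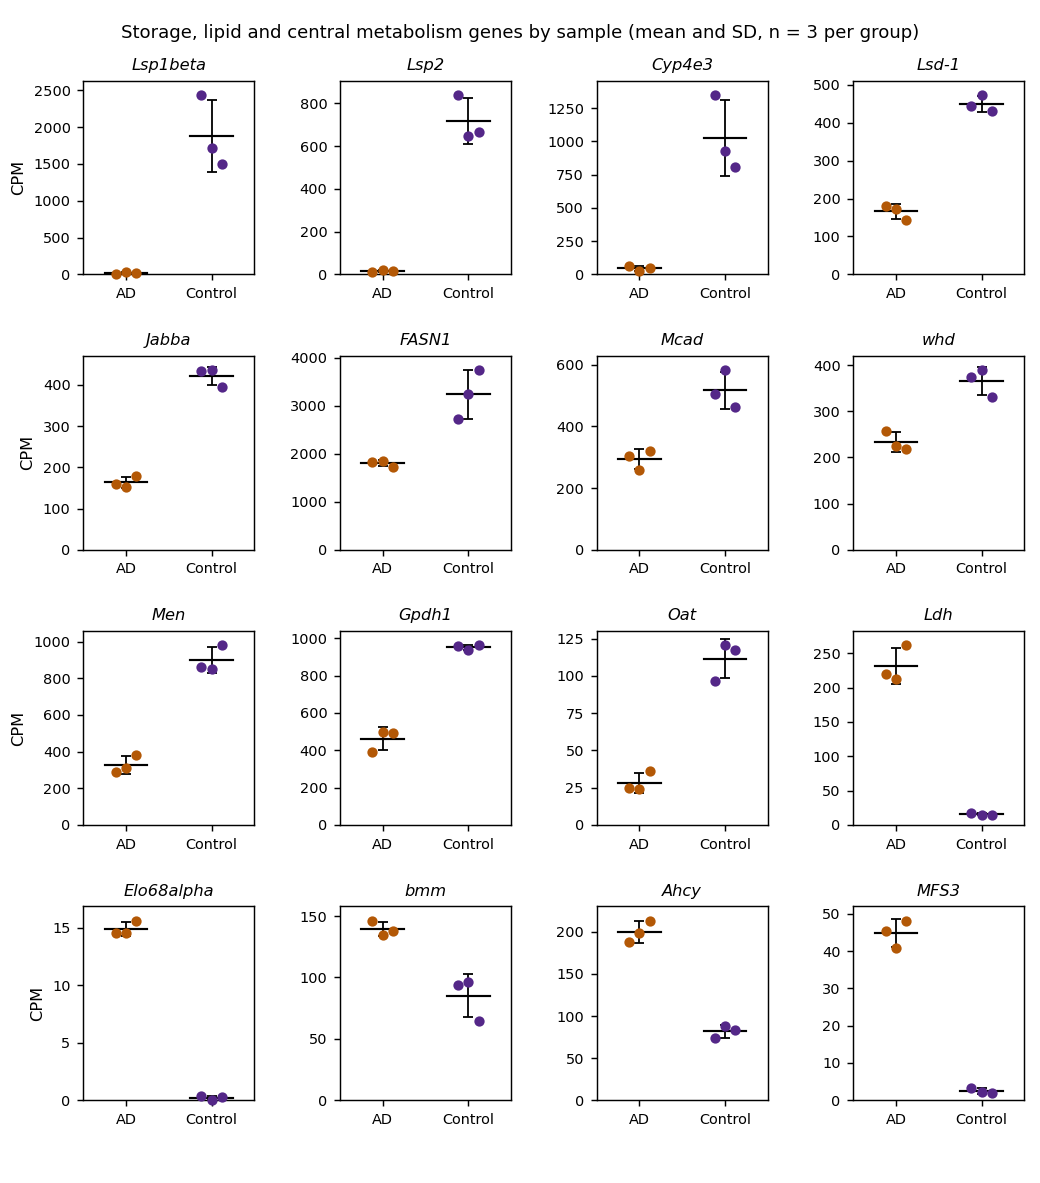
Each panel shows 1 gene in the 3 AD and the 3 Control samples, in CPM on an axis from 0, with the mean (line) and SD (bar). The storage, droplet and oxidation genes Lsp1beta to whd, and Men, Gpdh1 and Oat, lie lower in all AD samples than in any Control sample, and Ldh, Elo68alpha, bmm, Ahcy and MFS3 lie higher. Of all tested genes 21.2% lie lower and 22.8% higher in this way.

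Peptide hormone genes were mostly lower. Of 39 tested neuropeptide genes 21 were lower and 5 higher, with a median log2 fold change of -0.51. Their transcripts are short (median exon length 1033 bases), so the length trend ran the other way, and with it removed 22 were lower and 4 higher (median -0.61). When single samples were left out, 18 to 21 were lower. SIFa, a peptide made by a few brain cells that controls feeding and sleep, was at 0.578, 0.618 and 1.02 CPM in AD heads, against 8.08, 9.11 and 8.37 CPM in Control heads. The groups did not come near each other, with a log2 fold change of -3.52 ± 0.39 (adjusted p = 4.88e-05). Eh, eclosion hormone, made by a single pair of brain cells, was at 0.251, 0.223 and 0.0713 CPM in AD heads, against 2.04, 1.91 and 2.18 CPM in Control heads (-3.48 ± 0.49, adjusted p = 0.000289).

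Insulin-like peptide genes of the brain fell. Ilp2, the main insulin of the adult brain, was at 16.5, 20.5 and 16 CPM in AD heads, against 49.6, 50.5 and 53.4 CPM in Control heads (log2 fold change -1.54 ± 0.12, adjusted p = 2.16e-06). Ilp3 was at 2.71, 3.56 and 2.23 CPM in AD heads, against 11.2, 12.6 and 11.9 CPM in Control heads (-2.07 ± 0.17, adjusted p = 2.93e-06). Ilp5, made by the same cells, was at 6.18, 6.63 and 5.64 CPM in AD heads, against 13.1, 10.5 and 11.3 CPM in Control heads, 0.528 times as high (adjusted p = 0.00365). For Ilp2, Ilp3 and Ilp5 every AD sample was below every Control sample, as for 21.2% of all tested genes. Ilp1, with means of 0.107 CPM in AD and 0.382 CPM in Control heads, was called (adjusted p = 0.0365) but lost the call in 5 of the 6 fits that left out a sample, all but the one without the second Control sample (0.0528 to 0.12). The 4 genes lie in 1 cluster on chromosome arm 3L, from 9798420 (Ilp1) to 9823897 (Ilp5) of the dm6 assembly. They were the only called genes among 23 of insulin and TOR signalling, although 2 others were higher without the third AD sample and 4 with the length trend removed. The receptor InR, at 55.9, 52.2 and 30.1 CPM in AD heads, against 38.7, 35.0 and 33.2 CPM in Control heads, was not called.

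Other peptide genes fell as well, and which cells of the head made each transcript was not measured. Crz, corazonin, a stress peptide related to gonadotropin-releasing hormone, was at 9.78, 11.4 and 13.5 CPM in AD heads, against 33.4, 34.5 and 28.6 CPM in Control heads (log2 fold change -1.48 ± 0.12, adjusted p = 4.44e-06). CNMa, a peptide that signals a lack of amino acids, was at 3.79, 5.66 and 3.40 CPM in AD heads, against 10.5, 12.9 and 20.2 CPM in Control heads, 0.294 times as high. Dh44, the fly relative of corticotropin-releasing factor, was at 46.8, 55.5 and 38.1 CPM in AD heads, against 112, 97.2 and 97.0 CPM in Control heads, 0.458 times as high (adjusted p = 7.52e-05). Tk, tachykinin, fell to 0.5 times, CCHa2, a nutrient-responsive peptide, to 0.515 times, AstC, allatostatin C, to 0.548 times, ITP, an antidiuretic hormone, to 0.553 times, AstA to 0.579 times and NPF, the fly neuropeptide Y relative, to 0.637 times the Control level.

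Against this pattern 5 peptide genes were higher. Akh, adipokinetic hormone, the counterpart of glucagon that mobilises fat and sugar, was at 37.5, 52.3 and 40.3 CPM in AD heads, against 18.7, 8.67 and 3.96 CPM in Control heads (log2 fold change 2.06 ± 0.44, adjusted p = 0.00424). The Control samples spread widely but did not reach the AD samples. Akh is made outside the brain, in the corpora cardiaca, a gland behind it, and how much of this gland each sample held was not tested. The Control samples fell in the same order for the digestive enzyme Amy-p (77.4, 12.8 and 8.49 CPM), which was also higher in AD heads. Proc, proctolin, was at 104, 107 and 95.3 CPM in AD heads, against 54.5, 48.0 and 48.5 CPM in Control heads (1.02 ± 0.09, adjusted p = 6e-06), and FMRFa was at 20.4, 18.6 and 19.4 CPM in AD heads, against 10.4, 9.16 and 10.1 CPM in Control heads (0.98 ± 0.14, adjusted p = 0.00023). CCHa1 rose 1.62-fold, and the clock neuron peptide Pdf was called at 1.31-fold but not without the first AD, the third AD, the first Control or the second Control sample.

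**Figure D5:**
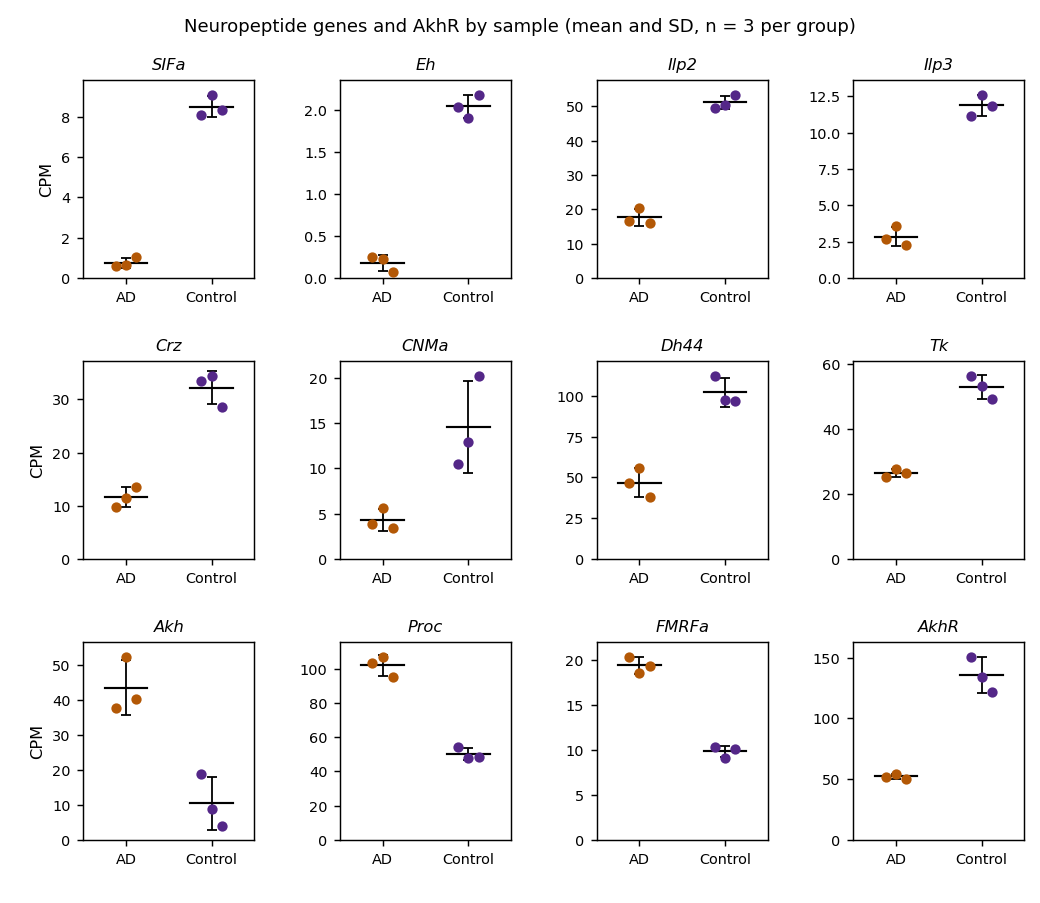
Each panel shows 1 gene in the 3 AD and the 3 Control samples, in CPM on an axis from 0, with the mean (line) and SD (bar). For SIFa, Eh, Ilp2, Ilp3, Crz, CNMa, Dh44, Tk and AkhR every AD sample is below every Control sample, as for 21.2% of all tested genes. For Akh, Proc and FMRFa every AD sample is above, as for 22.8% of all tested genes.

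Receptors for these peptides changed less, with 8 of 36 lower and 3 higher (median -0.09), and the 8 became 4 without the first or the third AD sample and 5 without the second or the third Control sample. Next to AstC-R1, the best separated was AkhR, the Akh receptor of the fat body, at 52.0, 54.0 and 50.4 CPM in AD heads, against 151, 134 and 122 CPM in Control heads (log2 fold change -1.38 ± 0.10, adjusted p = 1.09e-06). The transcripts of Akh and its receptor thus moved in opposite directions in whole heads, with the limit for Akh given above. AstA-R1, an allatostatin A receptor, was at 0.478 times and its ligand AstA at 0.579 times the Control level.

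Genes of the synapse shifted down by small amounts. Of 31 synaptic vesicle and active zone genes 10 were lower and none higher, and all 31 fold changes were negative (median -0.37). The pan-neuronal markers (-0.39) and the glial genes (-0.37), described below, had similar medians, so the shift was not particular to the synapse. The vesicle protein nSyb, whose promoter drives Gal4 in both groups, was at 1199, 1139 and 1034 CPM in AD heads, against 1468, 1541 and 1560 CPM in Control heads, 0.738 times as high (adjusted p = 0.00737). Cadps, which primes dense core vesicles for release, fell to 0.682 times. The active zone scaffold brp, at 249, 270 and 165 CPM in AD heads, against 341, 310 and 336 CPM in Control heads, was just outside the threshold (adjusted p = 0.0501), and the calcium sensor Syt1, at 474, 537 and 311 CPM in AD heads, against 644, 527 and 566 CPM in Control heads, was not called. For both the third AD sample was the lowest. These transcripts are long (median 4638 bases), and the list had 5 lower without the third AD sample, 4 without the third Control sample and 9 with the length trend removed (median -0.24).

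Ion channels showed the same pattern, with 12 of 30 lower and none higher (median -0.42, median exon length 5922 bases). Shal, a potassium channel of neuronal cell bodies and dendrites, was at 60.1, 64.2 and 46.2 CPM in AD heads, against 103, 78.2 and 85.0 CPM in Control heads (log2 fold change -0.64 ± 0.14, adjusted p = 0.0042). Task6, a leak potassium channel, fell to 0.675 times and Irk3, an inward rectifier, to 0.653 times the Control level. The list had 7 lower without the third AD sample, 6 without the first and 7 without the third Control sample, and 12 with the length trend removed (median -0.22).

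Transmitter pathways held larger changes. Of 23 genes for making and carrying transmitters 13 were lower and 3 higher (median -0.48, median exon length 3380 bases). The list had 10 lower without the third AD sample (median -0.36) and 10 without the third Control sample. With the length trend removed 11 were lower and 2 higher (median -0.38). Gad1, which makes GABA, was at 191, 196 and 155 CPM in AD heads, against 298, 254 and 276 CPM in Control heads (log2 fold change -0.61 ± 0.11, adjusted p = 0.00139). ChAT, which makes acetylcholine, fell to 0.671 times, SerT, the serotonin transporter, to 0.716 times and Tbh, which makes octopamine, to 0.664 times. The deepest falls were in e and b, genes of the β-alanine pathway that inactivates histamine and dopamine and tans the cuticle. The gene e was at 27.2, 28.5 and 29.7 CPM in AD heads, against 73.0, 110 and 96.0 CPM in Control heads (-1.71 ± 0.34, adjusted p = 0.0029), and b was at 44.3, 46.8 and 59.8 CPM in AD heads, against 91.5, 126 and 115 CPM in Control heads, 0.453 times as high. Of the 3 higher genes Tdc2, which makes tyramine in neurons, rose 1.59-fold, and the number called higher was 1 without the second Control sample.

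On the receiving side 12 of 36 receptors other than nicotinic ones were lower and 1 higher (median -0.35). These transcripts are long (median 5013 bases), and the list had 10 lower without the third AD sample, 8 without the first Control sample, and 10 lower and 2 higher with the length trend removed (median -0.20). The gene ort, the histamine-gated chloride channel with which the targets of photoreceptors receive light signals, was at 7.94, 6.60 and 7.66 CPM in AD heads, against 27.5, 23.8 and 22.3 CPM in Control heads. Its log2 fold change of -1.73 ± 0.13 (adjusted p = 1.28e-06) was the largest of the list. Grd, a subunit of GABA-gated channels, was at 2.99, 3.36 and 2.90 CPM in AD heads, against 10.4, 7.44 and 8.66 CPM in Control heads, 0.35 times as high (adjusted p = 4.15e-05). Octbeta1R, an octopamine receptor, fell to 0.514 times, Dop1R2, a dopamine receptor needed for forgetting, to 0.607 times and GABA-B-R3 to 0.626 times. The muscarinic receptor mAChR-A was the gene that rose, at 156, 161 and 122 CPM in AD heads, against 83.4, 83.6 and 88.7 CPM in Control heads (0.78 ± 0.12, adjusted p = 0.000655).

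Cell surface proteins by which neurons recognise their partners, the dpr, DIP, beat and side families, had 21 of 53 lower and 1 higher (median -0.31, median exon length 3485 bases), with 14 lower without the third AD sample, 13 without the first Control sample and 16 with the length trend removed (median -0.22). The gene side-IV was at 39.7, 40.2 and 35.3 CPM in AD heads, against 75.8, 78.2 and 77.2 CPM in Control heads (log2 fold change -1 ± 0.09, adjusted p = 8.41e-06). DIP-theta fell to 0.642 times and dpr16 to 0.666 times, while dpr21 rose 1.35-fold. In the eye, phototransduction had 10 of 29 lower and none higher (median -0.36, 6 lower without the third Control sample). The rhodopsins Rh5 and Rh6 of the inner photoreceptors fell to 0.674 and 0.713 times the Control level. Among the most abundant genes of the list, trpl, a light-gated cation channel, was at 3033, 3144 and 3457 CPM in AD heads, against 3776, 4590 and 4882 CPM in Control heads (adjusted p = 0.0162), a call lost without the first AD (0.0677), the second Control (0.0517) or the third Control sample (0.0774).

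Among 20 tested glial genes 11 were lower and 1 higher (median -0.37). Eaat1, the transporter with which glia clear glutamate from synapses, was at 207, 205 and 161 CPM in AD heads, against 347, 327 and 351 CPM in Control heads (log2 fold change -0.84 ± 0.11, adjusted p = 0.0002). The gene alrm, a marker of fly astrocytes, fell to 0.611 times and moody, a receptor of the blood-brain barrier, to 0.691 times. The 11 became 7 without the third AD and 5 without the third Control sample, and with the length trend removed 11 were lower (median -0.31). The gene called higher lost its call without the first AD, the third AD, the second Control or the third Control sample. Of the 5 tested innexins, which form the gap junctions of insects, 4 were lower and 1 higher, with 2 lower without the third AD or the third Control sample. The neuronal innexin shakB was at 48.1, 58.5 and 32.1 CPM in AD heads, against 133, 95.5 and 107 CPM in Control heads, 0.412 times as high (adjusted p = 0.000659), and the glial innexin ogre fell to 0.661 times.

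Of 7 genes known to respond to neuronal activity 2 were higher and 1 lower. The lower one, CG14186, lost its call without the first AD, the third AD, the second Control or the third Control sample, while 2 were lower without the second AD sample. Arc2, a relative of the mammalian synaptic plasticity gene Arc, was at 12.6, 15.1 and 16.3 CPM in AD heads, against 3.90, 3.41 and 4.29 CPM in Control heads (log2 fold change 1.92 ± 0.13, adjusted p = 5.22e-07), without overlap. Its close relative Arc1, at 304, 328 and 330 CPM in AD heads, against 278, 274 and 239 CPM in Control heads, was called (adjusted p = 0.0453) but not without the second AD, the third AD, the second Control or the third Control sample, which left 1 higher. Pan-neuronal marker genes were negative in 9 of 9 cases and called lower in 4 (2 without the third AD, the first Control or the third Control sample). Their transcripts are the longest of these lists (median 8872 bases), and with the length trend removed 4 were lower and the median moved to -0.20, against -0.39 before. The gene elav, an RNA-binding protein of all neurons, was at 102, 100 and 60.2 CPM in AD heads, against 122, 95.9 and 100 CPM in Control heads, overlapped between the groups and was not called.

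Fly counterparts of genes that handle the amyloid precursor and Aβ had 4 of 15 tested members lower and none higher (median -0.10, median exon length 3946 bases). The list had 3 lower without the third AD sample (median -0.11) and 3 with the length trend removed (median -0.12). Appl, the fly amyloid precursor protein-like gene, was at 394, 402 and 266 CPM in AD heads, against 550, 560 and 613 CPM in Control heads (log2 fold change -0.70 ± 0.17, adjusted p = 0.00826). LRP1, the lipoprotein receptor-related protein whose mammalian counterpart takes up Aβ, was at 104, 100 and 66.1 CPM in AD heads, against 163, 147 and 149 CPM in Control heads, 0.588 times as high. Nep1, of the neprilysin family of proteases that degrade Aβ in mammals, was at 18.9, 17.0 and 21.2 CPM in AD heads, against 34.7, 40.9 and 42.3 CPM in Control heads (-1.05 ± 0.13, adjusted p = 0.000105). Nep4 was called lower with the largest adjusted p of the 4 (0.04) and lost the call when any one sample but the first Control sample was left out.

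Immune genes did not move in one direction. Of 13 tested antimicrobial peptide genes 7 were lower and 3 higher, with a median of -2.43, but these low values rested on the second Control sample. CecA1, a cecropin, was at 0.101, 0.321 and 0.285 CPM in AD heads, against 0.845, 38.2 and 0.863 CPM in Control heads, and AttC, an attacin, at 2.59, 7 and 5.92 CPM in AD heads, against 13.6, 248 and 25.6 CPM in Control heads. Dro, drosocin, was at 3.09, 9.82 and 5.68 CPM in AD heads, against 21.1, 189.8 and 39.1 CPM in Control heads (log2 fold change -3.75 ± 0.75, adjusted p = 0.0029). Without that sample Dro was the only 1 of the 7 still lower (-2.28, adjusted p = 0.00684), the median was -0.70, and CecA1, CecC and AttC had adjusted p = 0.147, 0.371 and 0.117. Leaving out the first, the second or the third AD sample left 2, 4 and 2 lower, and leaving out the first Control sample gave 11. Def, the peptide defensin, went up, at 22, 20.5 and 28.1 CPM in AD heads, against 11.8, 3.24 and 6.21 CPM in Control heads (log2 fold change 1.73 ± 0.42, adjusted p = 0.00905), and the number called higher was 1 without the third AD or the third Control sample.

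Blood cell genes were lower. Of 13 hemocyte genes 6 were lower and none higher (median -0.60), and summed hemocyte markers were 156 ± 17.5 CPM in AD and 317 ± 99 CPM in Control heads (SD, n = 3 each). NimC1, a phagocytosis receptor, was at 16.1, 11.9 and 14.5 CPM in AD heads, against 26.3, 50.6 and 56.2 CPM in Control heads (log2 fold change -1.65 ± 0.27, adjusted p = 0.00077). Sr-CI, a scavenger receptor, fell to 0.379 times, and Hml, the hemocyte marker hemolectin, to 0.443 times the Control level. The prophenoloxidases that melanise wounds fell with them, PPO1 to 0.261 times and PPO2 to 0.358 times, while the other 7 of 9 melanisation genes were not called. For these genes the first Control sample was the lowest of the Control samples and still above the AD samples.

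Cell death genes had 3 of 16 higher and none lower (median 0.14), with 1 lower without the third AD sample. Over all tested genes 14.4% were higher and 11.6% lower. The gene grim, which frees caspases from their inhibitor, was at 4.25, 3.04 and 3.00 CPM in AD heads, against 1.17, 0.701 and 0.576 CPM in Control heads (log2 fold change 2.07 ± 0.26, adjusted p = 0.000123). The tumour suppressor p53 rose 1.38-fold. The third, skl, a relative of grim, rose 1.83-fold but was not called without the third Control sample (adjusted p = 0.055). The other genes of this family, rpr and hid, had means of 1.5 and 16 CPM in AD heads, against 0.963 and 11.5 CPM in Control heads, and were not called. In stress kinase signalling 4 of 19 genes were higher and 1 lower, with 2 higher without the first AD or the first Control sample and none lower without these or the third Control sample. In either direction 18.8% of the cell death and 26.3% of the stress kinase genes were called, against 26.0% of all tested genes. Gadd45, a gene induced by DNA damage and stress, was at 32.8, 33.2 and 34.7 CPM in AD heads, against 17.8, 16.7 and 15.8 CPM in Control heads (1.00 ± 0.18, adjusted p = 0.00126), and Mmp1, a matrix metalloprotease, rose 1.39-fold.

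Digestive enzymes were prominent among the largest fold changes. Of 46 listed genes 21 were tested, of which 16 were higher and 1 lower (median 4.34), and most of the tested genes passed the filter on low counts through the AD samples. With at least 10 counts in each of the 6 samples 7 were tested, of which 5 were higher and none lower (median 0.91). No gene was called lower without the second AD, the third AD, the second Control or the third Control sample. Amy-p, an α-amylase, was at 770, 727 and 509 CPM in AD heads, against 77.4, 12.8 and 8.49 CPM in Control heads (log2 fold change 4.34 ± 0.98, adjusted p = 0.00628). The trypsin gene betaTry had 716, 982 and 652 counts in AD heads and 0 in all Control samples, at least 264-fold higher against a floor of 3 counts per library. The other heads that made Aβ42 had fewer betaTry counts. In the 6 samples that also made Yip7 or its shortened form, betaTry had 1, 186 and 7 counts and then 0 in all 3. Amylases, Jonah proteases, trypsins and lysozymes each form families of near-identical copies, so the split of reads among members, including alphaTry, Jon99Cii, Jon99Ciii, Jon65Aiv and LysD, all called higher, is uncertain.

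Muscle genes were partly higher, with 6 of 27 higher and 1 lower (median 0.03), and 3 higher without the second or the third Control sample. Act57B was at 1991, 1536 and 2094 CPM in AD heads, against 1050, 1115 and 937 CPM in Control heads (log2 fold change 0.86 ± 0.18, adjusted p = 0.00365), and Act87E rose 2.77-fold. Both are actin genes with near-identical copies. Mp20, a calponin-like protein of muscles outside the flight muscles, was at 740, 686 and 930 CPM in AD heads, against 199, 187 and 158 CPM in Control heads (2.11 ± 0.15, adjusted p = 1.22e-06). The abundant gene hzg was at 1137, 1073 and 737 CPM in AD heads, against 224, 180 and 187 CPM in Control heads, 4.99-fold higher (adjusted p = 6.68e-07). The abundant uncharacterised gene CG3088 rose 1.56-fold, and CG2233 and CG17108 were at 0.634 and 0.751 times the Control level. CG2233 lost its call without the second Control sample (adjusted p = 0.0522), and CG17108 lost its call when any one sample but the third AD sample was left out (0.0565 to 0.11).

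An opposite case was mthl8, of the methuselah family of receptors, which had 0 counts in all 3 AD samples, against 1745, 1839 and 1668 counts in the Control samples, at least 579-fold lower against a floor of 3 counts per library. Other Aβ42 heads did express it, with 417, 1387 and 64 counts in the samples with Yip7 and 1724, 571 and 2147 counts in those with its shortened form. It lies near the tip of 3L, at 22428 to 26308.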

How the data were processed

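PolyA RNA from heads was sequenced by a service company for the authors. Per the labels and the submitters' processing notes the reads were checked with FastQC and aligned to dm6 with HISAT2 2.1.0, with StringTie 1.3.1 and DESeq2 1.36.0 also named, and the study's methods add fastp and HTSeq-count. The annotation and the strand setting are not given in the sources used here, so overlapping and antisense genes and near-identical copies may share reads. The deposited table holds raw counts per gene for all 12 samples, and no column of another sample. These were used as deposited.

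Counts were filtered with filterByExpr over the 4 groups, scaled by TMM and fitted with edgeR 4.0.16 (limma 3.58.1, R 4.3.3), glmQLFit and glmQLFTest, in 1 model of all 12 samples without covariates, with Benjamini-Hochberg adjustment over 10577 genes and a threshold of 0.05. Levels are CPM, and n is 3 per group. Nothing in the labels ties the 3 samples to separate crosses, so p-values measure the spread between samples, which the study calls biological triplicates. The code was first tested on simulated data. A fold against a group at 0 was set against 3 counts per library, which covers counting error only. Gene positions and exon lengths came from an Ensembl annotation of the same assembly, matched by symbol for 13934 of 14162 genes.

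The genes named are the 15 per direction with the smallest p and the 15 with the largest fold (at least 1 CPM in the higher group) among called genes without overlap, the 8 per direction with the largest difference in CPM, all leaving out ribosomal protein, heat shock and odorant receptor genes, and members of 67 gene lists. The members, lists and rules were chosen with earlier results of these data known. Alternatives were DESeq2 1.42.0, fits of the 6 samples alone, DESeq2 size factors, upper-quartile scaling, TMM without ribosomal protein genes, no filter, at least 10 counts per sample, a 2-fold threshold, a replicate block, leaving out each sample, and, chosen after seeing the data, removal of the trend with exon length from each sample by an offset. Sequences and promoter motifs were not analysed here.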

Additional observations from a re-analysis of the deposited data

How the results depend on the processing

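No call changed sign under any alternative planned for these data, and 1 did when the length trend was removed. Requiring a fold over 2 besides the adjusted p left 853 genes, 564 higher and 289 lower. Leaving out single samples gave 1910 to 2635 called genes, 1069 to 1405 higher and 841 to 1230 lower, fewest without the third Control sample, which is labelled as older. With upper-quartile scaling the median log2 fold change of all genes moved to 0.06 and the share of calls that were higher to 64.5%, against 55.2%, with 1837 higher and 1010 lower. DESeq2 on all samples called 3229 genes and edgeR on the 6 samples alone 2458. Replicate numbers were given to both groups, but they did not pair the samples (correlations of same-numbered deviations -0.02, -0.21 and 0.06), and a replicate block called 2712 genes, 1418 higher and 1294 lower. Where leaving out a sample moved the count of a gene list by over 1.5 times, that count stands beside the list, and the cause was not tested. Changes of low-count genes were limited by depth, since 3 counts correspond to about 0.07 CPM.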

Other observations

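Detoxification genes changed in both directions. Of 79 tested cytochrome P450 genes 15 were higher and 13 lower (median log2 fold change 0.04). Next to Cyp4p2, Cyp309a2 was at 12.2, 8.48 and 15.2 CPM in AD heads, against 0.572, 0.725 and 1.10 CPM in Control heads (log2 fold change 3.90 ± 0.32, edgeR adjusted p = 3.1e-06), and Cyp6a14 rose 4.5-fold and Cyp9h1 3.71-fold. Cyp4s3 fell to 0.226, 0.247 and 0.167 CPM in AD heads, against 2.01, 2.42 and 2.81 CPM in Control heads (-3.48 ± 0.24, adjusted p = 9.69e-07). Of 35 glutathione S-transferases, which attach glutathione to toxic compounds, 8 were higher and 3 lower. GstE1 was at 32.8, 25.5 and 36.0 CPM in AD heads, against 9.22, 9.49 and 10.2 CPM in Control heads, 3.26-fold higher (adjusted p = 1.22e-06), and GstD1, the most abundant of those that rose, 1.59-fold, while GstE9 fell to 0.5 times the Control level.

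Odorant-binding proteins, small secreted carriers, had 10 of 32 higher and 6 lower, with 6 higher without the third Control sample. Obp49a was at 225, 202 and 263 CPM in AD heads, against 99.7, 75.8 and 75.1 CPM in Control heads (log2 fold change 1.46 ± 0.18, adjusted p = 0.000118), and Obp44a fell to 239, 143 and 257 CPM in AD heads, against 600, 721 and 692 CPM in Control heads (-1.66 ± 0.24, adjusted p = 0.000345). Metal transport genes had 4 of 29 higher and 8 lower, with 5 lower without the second and 4 without the third Control sample. The zinc transporters ZnT35C and ZnT33D went opposite ways, ZnT35C at 4.10, 2.89 and 3.21 CPM in AD heads, against 0.423, 0.314 and 0.264 CPM in Control heads, and ZnT33D at 0.226, 0.272 and 0.167 CPM in AD heads, against 2.91, 1.45 and 2.78 CPM in Control heads.

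Several genes were near 0 in a whole group. CG10910 had 803, 1153 and 681 counts in AD heads and 0 in all Control samples, at least 296-fold higher, and 0 to 313 counts in the 6 Yip7 samples. CG15818 had 1427, 1885 and 744 counts in AD heads and 0 in all Control samples, at least 457-fold higher, although its call (adjusted p = 0.0336) was lost whichever single sample was left out (0.0524 to 0.0847). CG45603, SkpE, a gene of the Skp1 family, and CG3868 were at 0 in all Control samples and at least 47.8-, 25.3- and 21.9-fold higher, and unlike CG10910 they had counts in every Yip7 sample. The gene c-cup was at 6.06, 6.90 and 8.37 CPM in AD heads, against 0.0497, 0 and 0 CPM in Control heads, CG30393 at 2.77, 2.27 and 2.76 CPM in AD heads, against 0, 0 and 0.024 CPM in Control heads, and CG8952 at 4.32, 6.13 and 3.42 CPM in AD heads, against 0.0249, 0 and 0.024 CPM in Control heads. In the other direction CAH5, a carbonic anhydrase gene, was at 0.679, 0.247 and 0.309 CPM in AD heads, against 10.3, 3.96 and 6.43 CPM in Control heads (log2 fold change -4.06 ± 0.58, adjusted p = 0.000326). CG17109, CG6733, CG9150, Obp99d and lncRNA:CR45242 fell to between 0.0465 and 0.0779 times the Control level.

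Some further genes were chosen after their values were seen. The neurotrophic ER protein Manf was at 91.2, 94.2 and 110 CPM in AD heads, against 31.9, 37.1 and 34 CPM in Control heads (log2 fold change 1.52 ± 0.11, adjusted p = 9.69e-07). Of the transcription factors with roles in specifying neurons, 4 were picked in this way for being lower, and no list of such factors was counted. The gene tj was at 13.9, 22.2 and 10.3 CPM in AD heads, against 81.8, 48.5 and 58.1 CPM in Control heads (-2.02 ± 0.27, adjusted p = 0.000195), with erm at 0.393, disco at 0.418 and ap at 0.498 times the Control level. The synaptic adhesion gene Nlg1 was higher, at 54.3, 55.4 and 37.9 CPM in AD heads, against 17.6, 14.5 and 12.6 CPM in Control heads (1.72 ± 0.16, adjusted p = 8.13e-06). The gene sug, a transcription factor of the Gli-similar family that acts in sugar sensing, was at 32.4, 24.0 and 31.9 CPM in AD heads, against 163, 108 and 63.5 CPM in Control heads (-1.93 ± 0.32, adjusted p = 0.000852).

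The counts of the other gene lists are given here, beside 14.4% of all tested genes called higher and 11.6% lower. No member of these lists was lower in the methionine cycle and glutathione synthesis list (3 of 12 higher), the mitochondrial chaperones and proteases (2 of 11 higher) or the peptidoglycan recognition proteins (1 of 9 higher). None was higher among the nicotinic receptor subunits (3 of 10 lower), the trehalose, glycogen and gluconeogenesis genes (4 of 11 lower) or the Turandot stress peptides (2 of 4 lower). Both directions were seen in the gustatory receptors (4 of 13 higher, 1 lower), the ionotropic chemoreceptors (2 of 21 higher, 1 lower), the circadian clock genes (1 of 15 higher, 2 lower) and the axonal transport genes (2 of 22 higher, 1 lower). The same held for Toll and Imd signalling (4 of 26 higher, 1 lower), JAK-STAT signalling (2 of 9 higher, 1 lower), Bomanins (2 of 12 higher, 4 lower) and serpins (4 of 18 higher, 1 lower). Antioxidant enzymes had 1 of 17 higher and 3 lower, UDP-glycosyltransferases 2 of 25 higher and 1 lower, lysosomal genes 1 of 17 higher and 4 lower, and Niemann-Pick C genes 1 of 7 higher and 1 lower. Ecdysone and juvenile hormone genes had 2 of 24 higher and 3 lower, cuticular proteins 9 of 29 higher and 3 lower, eye pigment genes 1 of 8 higher and 4 lower, and female germline genes 2 of 6 higher and 1 lower.

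Single samples decided several of these counts. Without the second or the third AD or any one Control sample no mitochondrial chaperone or protease gene was higher. Of the peptidoglycan recognition proteins 2 were higher without the first AD sample, none without the third AD, the first Control or the third Control sample, and 1 was lower without the second AD or the third Control sample. Of the nicotinic subunits 1 was lower without the third AD or the third Control sample, and 1 was higher without the third AD or the first Control sample. No Turandot gene was lower without the first or the third AD sample. Eye pigment genes had 1 lower without the first AD or the third Control sample and 2 lower in the other fits of this kind. Female germline genes had 1 higher whichever sample but the third AD one was left out. Bomanins had 2 lower without the first AD, the third AD or the second Control sample, and cuticular proteins 1 lower without the first AD or the second Control sample. Serpins had 2 lower without any one AD sample or the second Control sample, and ionotropic chemoreceptors 2 lower without the first or the second AD sample. UDP-glycosyltransferases had 1 higher without the first AD, the third AD, the first Control or the third Control sample, and ecdysone and juvenile hormone genes 1 higher without the second or the third Control sample. Circadian genes had 2 higher without the third AD or the first Control sample and 1 lower without the third AD or the third Control sample. The gene called lower lost its call in Toll and Imd signalling without the first or the third Control sample, and in JAK-STAT signalling without the third AD or the first Control sample.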
